A study of Mus musculus with 6 samples.

Results

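The transcripts of 10 genes for enzymes that add galactose, or in 1 case N-acetylgalactosamine, to growing sugar chains were followed in the mouse epididymis. They were chosen by gene symbol from the table of 57127 genes, and comprise B3galt1, B3galt2, B3galt4, B3galt5, B3galt6, B3galnt1, B4galt1, B4galt4, B4galt5 and B4galt6. Whole epididymides of adult wild-type mice (WT, strain C57BL/6) were compared with those of adult Ocln-/- mice (Ocln-KO, same strain label), a germline knockout of the tight junction protein occludin, which came from heterozygous pairings. Each genotype has 3 libraries, 6 in all, and no group received a treatment. The methods mention both separate extraction of RNA and pooled RNA, so that each library may or may not be 1 mouse, and p-values measure only the spread between these libraries.

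Galactosyltransferases of the Golgi apparatus take galactose from UDP-galactose and place it on an acceptor sugar. The beta-1,3 enzymes encoded by B3galt1, B3galt2 and B3galt5 build type 1 chains on N-acetylglucosamine, the beta-1,4 enzymes encoded by B4galt1 and B4galt4 build type 2 chains (N-acetyllactosamine), and others serve glycolipids or the linker of proteoglycans. In the epididymis, glycoproteins secreted by the epithelium coat the sperm surface during maturation, and the B4galt1 product is also known from the sperm surface itself.

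The libraries held between 30646424 and 38870780 counts, which let 19691 genes enter the test. Levels are CPM, the count of a gene per 1e+06 counts of its library after TMM scaling, and 1 count equalled between 0.0267 and 0.0314 CPM. Ocln itself had between 78.8 and 91.8 CPM in WT and between 14.9 and 15.3 CPM in Ocln-KO (edgeR adjusted p = 0.000108). On the first principal component of log2 CPM, Ocln-KO replicate 3 lay at 86.3, against 17.7 and 29.1 for the other Ocln-KO libraries and -52.8 to -37.0 for WT. Of the markers listed for initial segment and caput principal cells, Adam7, Lcn5 and Ros1 had at least 162679, 79540 and 7741 counts in each library. From the same list, Lcn9, Adam28 and Cst11 had at most 5 counts in any library, Rnase10 at most 20, Cst8 at most 25 and Lcn8 at most 86. The posterior Hox genes Hoxa11, Hoxa13, Hoxd11, Hoxd12 and Hoxd13, listed as distal markers, had at most 1 count in any library. Gpx5, a secreted peroxidase of the caput, ran from 26.3 to 172 CPM in WT and had 256, 7264 and 10039 CPM in Ocln-KO replicates 1, 2 and 3.

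Of the 10 galactosyltransferase genes, 8 were tested, and B3galt4 and B3galt5 had too few counts. B3galt2 had the largest difference among the 8, from a WT mean of 87.9 ± 12 CPM to an Ocln-KO mean of 15.5 ± 13.1 CPM (SD, n = 3 each). In the other direction, B4galt6, B3galt1 and B4galt1 had 1.74, 1.7 and 1.39 times their WT level in Ocln-KO. In the quasi-likelihood test of edgeR, with p-values adjusted over all genes after Benjamini and Hochberg, 0 of the 8 had an adjusted p under 0.05, against 8.95% of all tested genes. Among all tested genes 3.91% were called higher and 5.04% lower in Ocln-KO, and 3.19% were called with a change of over 2-fold. Of the 8 genes, 4 had an unadjusted p under 0.05, B3galt2, B4galt6, B4galt1 and B3galt6, against 29.1% of all tested genes. DESeq2 called 1, B4galt6 (adjusted p = 0.0431), where it called 16.8% of all tested genes. limma-voom called 1, B3galt2 (adjusted p = 0.0438), where it called 9.03% of all tested genes. With Ocln-KO replicate 3 left out, the edgeR test called 1, B3galt2 (adjusted p = 0.00129), and 8.31% of all tested genes.

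Between the genotypes, the libraries did not overlap for 7 of the 8 tested genes, against 36.3% of all tested genes. The genes were chosen with earlier results of these data known, so this count is a description. Of the 9 other galactosyltransferase genes that were tested, 2 did not overlap, both lower in Ocln-KO. B4galt2, B4galt3 and B4galt7, the B4galt genes left out of the 10, overlapped, with log2 fold changes of -0.25, -0.09 and -0.42. The levels of B3galt1, B3galnt1, B4galt1, B4galt5 and B4galt6 were higher in each Ocln-KO library than in each WT library, which held for 16.9% of all tested genes. Those of B3galt2 and B3galt6 were lower, which held for 19.4%. The median log2 fold change of the 8 was 0.28, with 6 above and 2 below 0, beside 0.01 for all tested genes. Without Ocln-KO replicate 3 it was 0.15, with 5 above and 3 below. These directions were the same with RLE factors, with total counts only and with factors made without the 20 most abundant genes, but the sign for B4galt4 reversed when WT replicate 3 or Ocln-KO replicate 3 was left out. Under total counts only, where the median log2 fold change of all genes was 0.09, the share of higher genes among all calls was larger, with 1175 higher and 674 lower, where TMM factors gave 770 and 992.

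**Figure D1:**
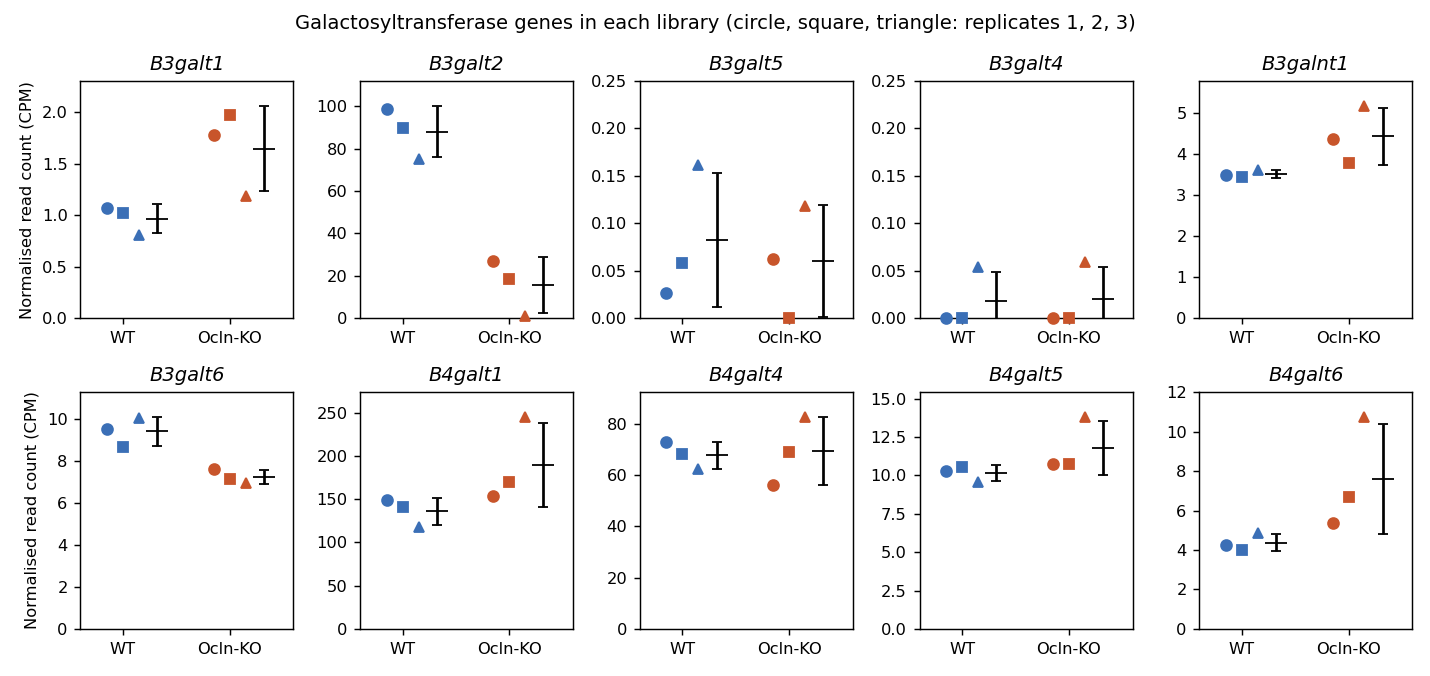
Normalised read count (CPM, linear axes from 0) of each of the 10 genes in the 3 WT (blue) and 3 Ocln-KO (orange) libraries, with the mean and SD of each genotype beside the points. B3galt2 lies between 75.1 and 98.9 CPM in WT and between 1.18 and 26.9 CPM in Ocln-KO, while B3galt4 and B3galt5 reach at most 0.162 CPM.

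Ocln-KO libraries varied more than WT libraries in these genes. The SD of log2 CPM was larger in Ocln-KO for 7 of the 8, and for 60.4% of all tested genes. Ocln-KO replicate 3 was the highest or the lowest of the Ocln-KO libraries in 8 of the 8, and in 72.9% of all tested genes. It was the highest for B3galnt1, B4galt1, B4galt4, B4galt5 and B4galt6 and the lowest for B3galt1, B3galt2 and B3galt6.

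**Figure D2:**
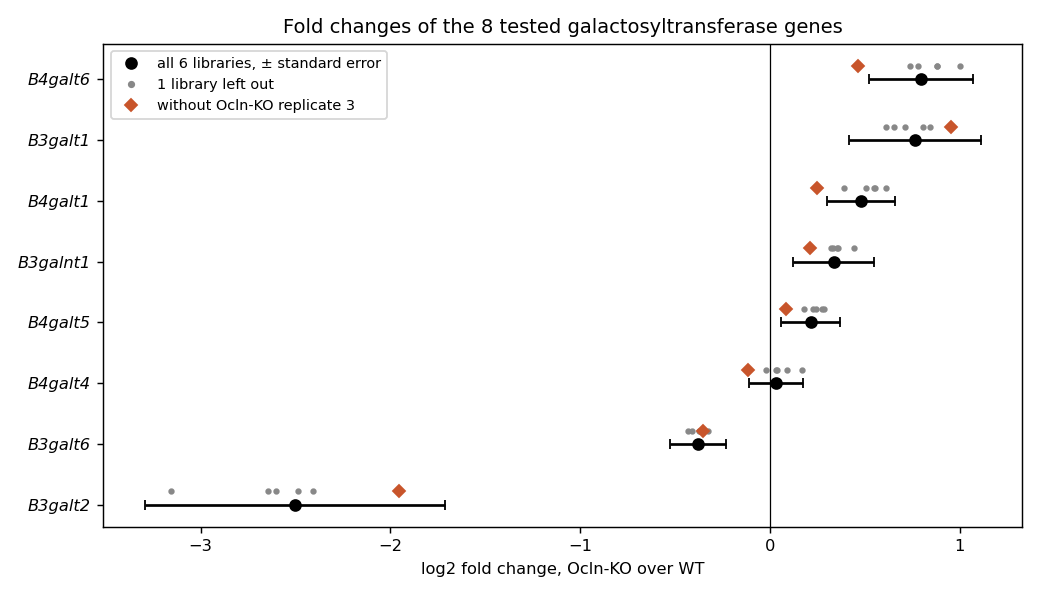
Log2 fold change, Ocln-KO over WT, of the 8 tested genes (black points, ± standard error), with the values when 1 library is left out (grey points) and those without Ocln-KO replicate 3 (orange diamonds). B3galt2, at -2.50, stands below the others, which lie between -0.38 and 0.80, and the diamonds lie nearer to 0 than the black points for B3galt2, B3galt6, B3galnt1, B4galt1, B4galt5 and B4galt6.

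B3galt2 encodes a beta-1,3-galactosyltransferase that places galactose on N-acetylglucosamine. The gene lies on chromosome 1 of GRCm38, from 143640664 to 143654614 on the plus strand, with 2 exons in GENCODE M21. The WT libraries had 98.9, 89.7 and 75.1 CPM, and the Ocln-KO libraries 26.9, 18.5 and 1.18 CPM. Each Ocln-KO library lay well under each WT library, and replicate 3 held 40 counts where WT libraries held at least 2788. The log2 fold change was -2.50 ± 0.79 (SE, edgeR adjusted p = 0.0851). Across 14 alternatives it ran from -3.42 to -1.95, with an adjusted p between 0.00129 and 0.207, under 0.05 in 3 of the 14. RNA of a whole organ was measured, so fewer cells that express B3galt2 and less B3galt2 RNA in each cell cannot be told apart.

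The B3galt2 gene is nested in Cdc73, a gene of the transcription elongation machinery on the opposite strand (143598800 to 143702893), and 679 of its 9288 exonic bases are shared with exons of Cdc73. If strand was not used in counting, a read from the shared bases fits both genes. The sources used here state neither the strand setting nor the rule for such reads. Cdc73 had 96.9, 92.7 and 76.2 CPM in the WT libraries and 99.1, 84.5 and 87.4 CPM in those of Ocln-KO. These values overlapped, with a log2 fold change of 0.03 ± 0.12 (SE, edgeR adjusted p = 0.901), which changed sign without WT replicate 3 or Ocln-KO replicate 1.

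The 250 bases before the RefSeq start of B3galt2 are shown beside those of B4galt1, the most abundant gene of the family. B3galt2 has the largest expression difference and the lowest G and C content of the windows taken, which leave out B4galt6. The B4galt1 window is rich in G and C. In B3galt2 (GRCm38.p6, chr1:143640447-143640696, plus strand) the capitals mark TGTTCT, a half-site of the androgen receptor motif, and in B4galt1 (chr4:40853985-40854234, minus strand) they mark GGGCGG, the GC box, here as its reverse complement CCGCCC. Each motif was searched on both strands.
B3galt2: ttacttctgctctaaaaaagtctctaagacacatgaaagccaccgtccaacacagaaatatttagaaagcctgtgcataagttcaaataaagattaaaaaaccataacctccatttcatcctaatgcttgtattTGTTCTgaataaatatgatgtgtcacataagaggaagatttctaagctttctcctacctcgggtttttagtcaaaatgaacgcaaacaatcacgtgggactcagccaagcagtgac
B4galt1: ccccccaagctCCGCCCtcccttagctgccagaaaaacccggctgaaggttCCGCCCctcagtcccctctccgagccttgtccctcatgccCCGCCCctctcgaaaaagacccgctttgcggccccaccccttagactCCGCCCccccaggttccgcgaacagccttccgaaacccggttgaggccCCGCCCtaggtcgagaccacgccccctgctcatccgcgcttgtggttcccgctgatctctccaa
The B3galt2 window has 36.8% G and C and 4 CpG dinucleotides, and the B4galt1 window 66.4% and 19, where the median of 32851 RefSeq windows of this length is 52.4% and 6. Windows were taken for 9 of the 10 genes, 12 in all. The next lowest of them after B3galt2 is 41.2%, at one of the B3galt1 starts. The rank of the gene left out was not tested. TGTTCT occurs in 16.1% of all windows and GGGCGG in 32.7%. TATAAA, the TATA box, occurs in 12.4% of all windows and CCAAT, the CCAAT box, in 33.8%, and the windows shown hold neither. A match of letters is a description and not evidence of binding.

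The 5 genes whose profile over the 6 libraries was nearest to that of B3galt2, by the root mean square difference of centred log2 CPM among 16357 genes with a mean of at least 1 CPM, were Bsph2, Rab3c, Gm5737, Odam and Gm10823. The differences ran from 0.27 to 0.29 on the log2 scale. Bsph2 encodes a binder of sperm protein, Rab3c a small GTPase of secretory vesicles, and Odam a secreted protein first described in enamel-forming cells. Bsph2 had 218, 184 and 209 CPM in the WT libraries and 45.8, 35.7 and 1.89 CPM in those of Ocln-KO. In Ocln-KO replicate 3 each of the 5 genes was at most 1.9% of its WT mean, beside 1.35% for B3galt2. Since the 5 were chosen for their likeness to B3galt2 over these libraries, their low levels in Ocln-KO follow from the choice and are a description.

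**Figure D3:**
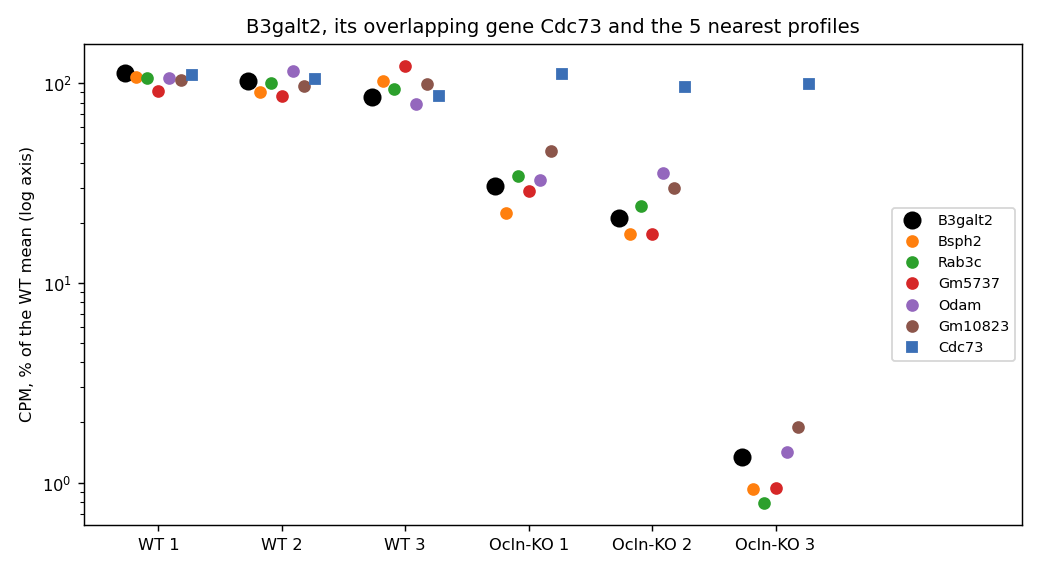
Level of B3galt2, of its 5 nearest genes and of the overlapping gene Cdc73 in each library, as a percent of the gene's WT mean on a log axis. B3galt2 lies at 30.6%, 21% and 1.35% in Ocln-KO replicates 1, 2 and 3, and Cdc73 between 95.4% and 112%.

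Markers of cell types and regions differed between the same libraries. The 7 clear cell markers summed to 203 to 289 CPM in the WT libraries and to 68.1 to 113 CPM in those of Ocln-KO, and 5 of the 7 had an adjusted p under 0.05, all of them lower. The 5 calls became 0 with any 1 WT library left out and 2 without Ocln-KO replicate 2. They stayed 5 without Ocln-KO replicate 1 or 3, and all 7 markers were below WT in each of these fits. The 6 distal markers summed to 12488 to 16768 CPM in the WT libraries and to 4439 to 9957 CPM in those of Ocln-KO, nearly all of it from Crisp1, a sperm-coating protein, since the 5 Hox genes were at or near 0. Of the 10 initial segment and caput markers 6 were tested, with Gpx5 called higher, and the list summed to 10167 to 14596 CPM in the WT libraries and 8085 to 23343 CPM in those of Ocln-KO. The 8 spermatid and sperm markers summed to 299.9 to 375 CPM in the WT libraries and to 413, 418 and 97.7 CPM in Ocln-KO replicates 1, 2 and 3. Of the 12 marker lists, those of clear cells, distal epididymis, sperm, epithelial cells and adipocytes had their lowest sum of the 6 libraries in Ocln-KO replicate 3, as had B3galt2. For clear cells this came from Car2 alone, a carbonic anhydrase gene at 46.4, 62.7 and 5.89 CPM in Ocln-KO. The other 6 clear cell markers, summed separately after the data were seen, had 57.2, 50.0 and 62.2 CPM in Ocln-KO replicates 1, 2 and 3 and at least 99.97 CPM in each WT library. The 9 lymphocyte markers, of which 5 were tested, summed to 2.83 to 3.61 CPM in the WT libraries and 5.36 to 10.3 CPM in those of Ocln-KO. The 6 smooth muscle markers summed to 1174 to 1408 CPM in the WT libraries and to 1593 to 2115 CPM in those of Ocln-KO, with Myh11 called higher. The 8 macrophage markers summed to 159 to 183 CPM and to 183 to 282 CPM, with 0 called, 2 higher and 1 lower (Cd163) without overlap, against 36.3% of all tested genes without overlap. The basal cell markers summed to 235 to 247 CPM in the WT libraries and 243 to 287 CPM in those of Ocln-KO (Krt14 called higher), those of epithelial cells at large to 1756 to 1986 and 1460 to 1864 CPM (Krt19 called higher), those of endothelium to 101 to 116 and 101 to 130 CPM (0 called), those of adipocytes to 4.93 to 9.06 and 0.592 to 3.55 CPM (0 called), and those of neurons to 18 to 24.4 and 17.3 to 22 CPM (Th called lower). The part of these differences in the values of the galactosyltransferase genes was not tested.

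The other type 1 chain genes of the family were scarce. B3galt1, on chromosome 2 from 67565871 to 68122689, had 1.07, 1.03 and 0.808 CPM in the WT libraries and 1.78, 1.98 and 1.18 CPM in those of Ocln-KO. The genotypes did not overlap, although Ocln-KO replicate 3 came close to WT. These levels rest on 30 to 63 counts per library. Its log2 fold change was 0.76 ± 0.35 (SE, edgeR adjusted p = 0.19). B3galt5 (chromosome 16, 96235801 to 96319859), whose enzyme also extends glycolipids, had 1, 2 and 6 counts in WT and 2, 0 and 4 in Ocln-KO. A difference was not detectable at this depth, where 3 counts equal 0.0802 to 0.0942 CPM.

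Relative to B3galt2, B3galt1 was more abundant in each Ocln-KO library than in any WT library. In the WT libraries the log2 ratio of B3galt1 to B3galt2 counts was -6.53, -6.45 and -6.54, and in the Ocln-KO libraries -3.92, -3.22 and 0. In Ocln-KO replicate 3 both genes had 40 counts. The difference of 4.12 on the log2 scale had p = 0.1 in an exact two-sided permutation test, the smallest p that 3 libraries against 3 can give (adjusted p = 0.15 over the 3 ratios compared). Without Ocln-KO replicate 3 it was 2.93. A ratio within a library does not depend on the scaling between libraries.

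Among the beta-1,3 enzymes of other acceptors, B3galt6 encodes the second galactosyltransferase of the linker that joins glycosaminoglycan chains to core proteins. It lies on chromosome 4 from 155989466 to 155992649 and has 1 exon. Its levels were 9.49, 8.67 and 10 CPM in the WT libraries and 7.61, 7.12 and 6.95 CPM in those of Ocln-KO. The lowest WT library was above the highest Ocln-KO library, and the log2 fold change was -0.38 ± 0.15 (SE, edgeR adjusted p = 0.139). Over 14 alternatives it ran from -0.43 to -0.29, and the adjusted p did not fall under 0.134.

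B3galnt1 (chromosome 3, 69574158 to 69598960) encodes the N-acetylgalactosaminyltransferase that makes globoside. It had 3.48, 3.43 and 3.61 CPM in the WT libraries and 4.36, 3.77 and 5.15 CPM in those of Ocln-KO. The WT libraries lay close together and under each Ocln-KO library, with a log2 fold change of 0.34 ± 0.21 (SE, edgeR adjusted p = 0.338), or 0.21 without Ocln-KO replicate 3. B3galt4 (chromosome 17, 33949909 to 33951488), whose enzyme makes the ganglioside GM1, had 2 counts in WT replicate 3, 2 counts in Ocln-KO replicate 3 and 0 in the other 4 libraries. It was not detectable above the limit of 3 counts in any library.

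B4galt1 encodes the main N-acetyllactosamine synthase, which is also the catalytic part of lactose synthase in the mammary gland, and lies on chromosome 4 from 40804602 to 40854005. The WT libraries had 149, 141 and 118 CPM, and the Ocln-KO libraries 154, 170 and 245 CPM. Ocln-KO replicate 1 exceeded WT replicate 1 by little, and replicate 3 stood apart at the top. The log2 fold change was 0.48 ± 0.18 (SE, edgeR adjusted p = 0.128), and without Ocln-KO replicate 3 it was 0.25 (adjusted p = 0.214).

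B4galt4, whose enzyme prefers sulfated N-acetylglucosamine as in keratan sulfate, lies on chromosome 16 from 38742264 to 38769049. It had 72.9, 68.1 and 62.3 CPM in the WT libraries and 56.1, 69.2 and 82.6 CPM in those of Ocln-KO. The genotypes overlapped, with a log2 fold change of 0.03 ± 0.14 (SE, edgeR adjusted p = 0.908) that became -0.11 without Ocln-KO replicate 3 and -0.02 without WT replicate 3.

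The log2 ratio of B4galt1 to B4galt4 counts did not overlap between the genotypes. It was 1.03, 1.05 and 0.92 in the WT libraries and 1.46, 1.29 and 1.57 in the Ocln-KO libraries. Each Ocln-KO value exceeded each WT value, and the geometric mean ratio was 2 in WT and 2.71 in Ocln-KO. The difference of 0.44 had p = 0.1 in the exact two-sided permutation test, the smallest possible (adjusted p = 0.15 over the 3 ratios). Over the 6 fits that drop a library it ranged between 0.37 and 0.51.

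B4galt5 and B4galt6 both encode lactosylceramide synthases, which add galactose to glucosylceramide and open the path to gangliosides and globosides. B4galt5 (chromosome 2, 167298444 to 167349183) had 10.3, 10.5 and 9.56 CPM in the WT libraries and 10.7, 10.8 and 13.8 CPM in those of Ocln-KO. Ocln-KO replicates 1 and 2 were just above the WT range, and the log2 fold change was 0.22 ± 0.15 (SE, edgeR adjusted p = 0.4), or 0.084 without Ocln-KO replicate 3. B4galt6 (chromosome 18, 20684599 to 20746404) had 4.28, 4.01 and 4.85 CPM in the WT libraries and 5.39, 6.72 and 10.7 CPM in those of Ocln-KO. The 3 Ocln-KO libraries spread widely above WT. Its log2 fold change was 0.80 ± 0.27 (SE, edgeR adjusted p = 0.104), and 0.47 without Ocln-KO replicate 3 (adjusted p = 0.209). The log2 ratio of B4galt5 to B4galt6 counts was 1.27, 1.39 and 0.98 in WT and 0.99, 0.68 and 0.36 in Ocln-KO. These ratios overlapped by a small margin (difference -0.54, p = 0.2 in the exact two-sided permutation test, adjusted p = 0.2 over the 3 ratios).

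To compare the genes with each other, levels were divided by the length of all exons together and given as CPM per kilobase. In WT the order was B4galt1 (32.1 ± 3.76), B4galt4 (21.1 ± 1.66), B3galt2 (9.46 ± 1.3), B3galt6 (2.95 ± 0.213), B4galt5 (2.35 ± 0.119), B3galnt1 (1.73 ± 0.046), B4galt6 (0.754 ± 0.0733) and B3galt1 (0.168 ± 0.0243; SD, n = 3 each), with B3galt5 and B3galt4 last. Neighbours from B4galt1 down to B3galt1 were further apart than the sum of their SDs, and B3galt5 and B3galt4 could not be ordered. With the longest transcript in place of all exons, B4galt4 came nearer to B4galt1, which was then 1.16 times as high, where it was 1.52 times as high with all exons. In Ocln-KO, B3galt2 was the sixth, at 1.67 ± 1.41 CPM per kilobase (SD, n = 3), and its SD spanned the means of B4galt5, B3galt6, B3galnt1, B4galt6 and B3galt1.

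Taken as shares of the 10 genes per kilobase, B3galt2 made up 13.9%, 13.4% and 12.7% in the WT libraries and 4.46%, 2.78% and 0.136% in the Ocln-KO libraries. B4galt1 made up 45.9%, 46.4% and 43.9% in WT and 55.9%, 55.9% and 61.7% in Ocln-KO. The share of B4galt4 stayed between 26.9% and 30.5% in all 6 libraries. The sum over the 10 genes was 70.7 ± 6.56 CPM per kilobase in WT and 76.8 ± 15 in Ocln-KO (SD, n = 3 each), a difference smaller than the spread. Shares add to a fixed total, so a smaller share of one gene raises those of the others.

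**Figure D4:**
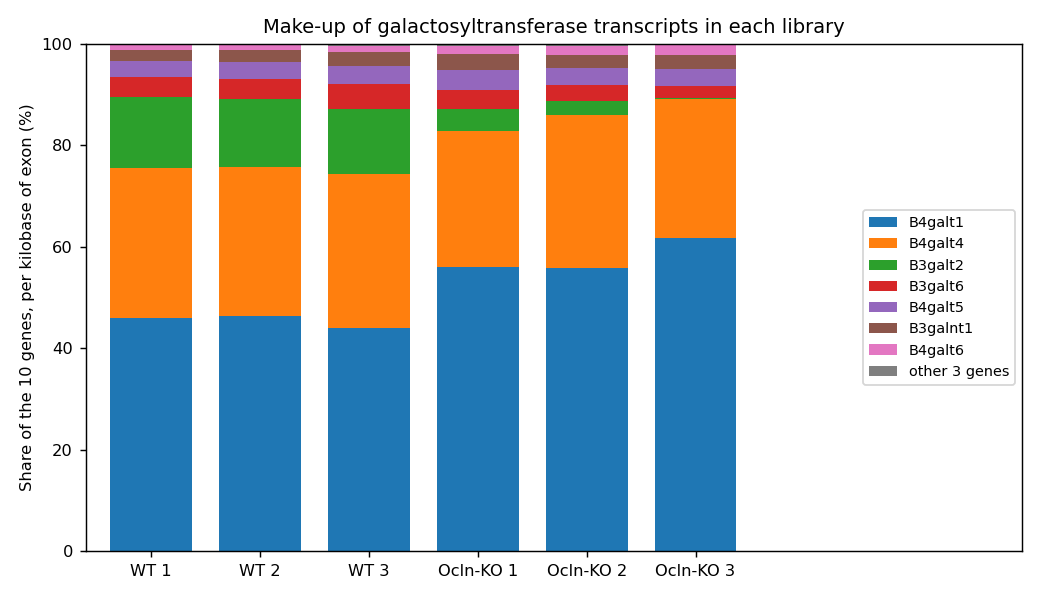
Share (percent) of each gene in the summed level of the 10 genes per kilobase of exon, 1 bar per library. B3galt2 (green) takes between 12.7% and 13.9% of each WT bar and at most 4.46% of each Ocln-KO bar, and B4galt1 (blue) at most 46.4% and at least 55.9%.

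Beside these genes, 86 others of galactose supply, sugar chain building, chain capping, glycolipid and glycosaminoglycan synthesis, galactose removal and galactose binding were listed by role. Of these, 78 were tested, and 2 were higher and 2 lower in Ocln-KO with an adjusted p under 0.05 in the edgeR test, 5.13% of the tested against 8.95% of all genes. Hexa, which encodes the alpha subunit of the lysosomal hexosaminidase that degrades the ganglioside GM2, fell from 100.1 ± 9.98 to 55.9 ± 3.21 CPM (SD, n = 3 each, log2 fold change -0.84, adjusted p = 0.0105). Pgm2, the gene of a phosphoglucomutase, also fell, from 70.3 ± 3.79 to 48.5 ± 3.48 CPM (SD, n = 3 each, log2 fold change -0.54, adjusted p = 0.0214). B4galnt1, whose enzyme makes GM2 downstream of the lactosylceramide synthases, rose from 40.7 ± 3.26 to 54.9 ± 5.13 CPM (SD, n = 3 each, log2 fold change 0.43, adjusted p = 0.0458). St3gal6, which encodes a sialyltransferase that caps galactose, rose from 24.3 ± 3.24 to 39 ± 7.79 CPM (SD, n = 3 each, log2 fold change 0.68, adjusted p = 0.0433). None of the 4 reached a 2-fold change. The 4 calls became 0, 1 and 0 without WT replicates 1, 2 and 3, where 17, 18 and 18 of the genes had an unadjusted p of less than 0.05. They became 10 when Ocln-KO replicate 1 was left out.

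Among the genes of the glycosaminoglycan linker, all 9, which include B4galt7 for the first galactose of the linker that B3galt6 extends, had log2 fold changes under 0, with a median of -0.25 beside 0.01 for all genes. Under total counts only the median was -0.16, beside 0.09 for all genes, and 1 of the 9 was above 0. None had an adjusted p under 0.05, and 3 did not overlap between the genotypes, B3gat3, Extl2 and Extl3, where 19.4% of all tested genes were lower without overlap. B4galt7 had 17.1, 14.9 and 23.9 CPM in the WT libraries and 15.4, 14.7 and 11.7 CPM in those of Ocln-KO, which overlapped (adjusted p = 0.204). Among the galactose supply genes 6 of 9 were below 0, and 5 of 9 under total counts only, with a median of -0.33 and Pgm2 called. Without overlap, 5 of the 9 were lower and 2, Galm and Galt, were higher, against 19.4% and 16.9% of all tested genes. Slc35a2, the Golgi carrier of UDP-galactose, had 33.9, 34.6 and 33.8 CPM in the WT libraries and 30, 27.4 and 24.1 CPM in those of Ocln-KO (adjusted p = 0.0855). Each Ocln-KO library lay below each WT library for this gene. Of the 8 galectin genes, which encode galactose-binding lectins, 7 were above 0 and 5 were higher without overlap, against 16.9% of all tested genes. Their median was 0.66 (0.43 without Ocln-KO replicate 2), and 0 were called in the main test. The calls became 1 under total counts only, 1 with DESeq2 and 3 without Ocln-KO replicate 1. In these fits 9.39%, 16.8% and 8.14% of all tested genes were called. An unadjusted p of less than 0.05 was reached by 23 of the 78 genes, against 29.1% of all tested genes.

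Of the 9 other galactosyltransferase genes that were tested, 8 were below 0 and 0 were called, and under total counts only 6 were below 0. B4galt2 and B4galt3, whose enzymes make type 2 chains like B4galt1, stood at -0.25 (edgeR adjusted p = 0.442) and -0.09 (edgeR adjusted p = 0.52) on the log2 scale, and both overlapped between the genotypes. Ggta1, which was singled out after its values were seen, encodes the alpha-1,3-galactosyltransferase that caps type 2 chains with a further galactose. It had 210, 183 and 240.1 CPM in the WT libraries and 110.5, 105 and 30.1 CPM in those of Ocln-KO. Like B3galt2, it was lower in each Ocln-KO library than in each WT library and lowest in Ocln-KO replicate 3, with a log2 fold change of -1.37 ± 0.42 (SE, edgeR adjusted p = 0.0796). The medians of the other lists moved with single libraries. That of the N-acetylgalactosaminyltransferases was 0.36 and became -0.023 without Ocln-KO replicate 3, and that of the N-acetylglucosaminyltransferases was 0.31 and became 0.10. The sialyltransferase median was -0.17 (-0.040 without Ocln-KO replicate 1 and -0.061 without WT replicate 3), and the fucosyltransferase median was -0.20 (-0.097 without Ocln-KO replicate 3). The sulfotransferase and glycosphingolipid medians, both -0.06, were on either side of 0 with libraries left out, and the galactosidase median was -0.35.

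**Figure D5:**
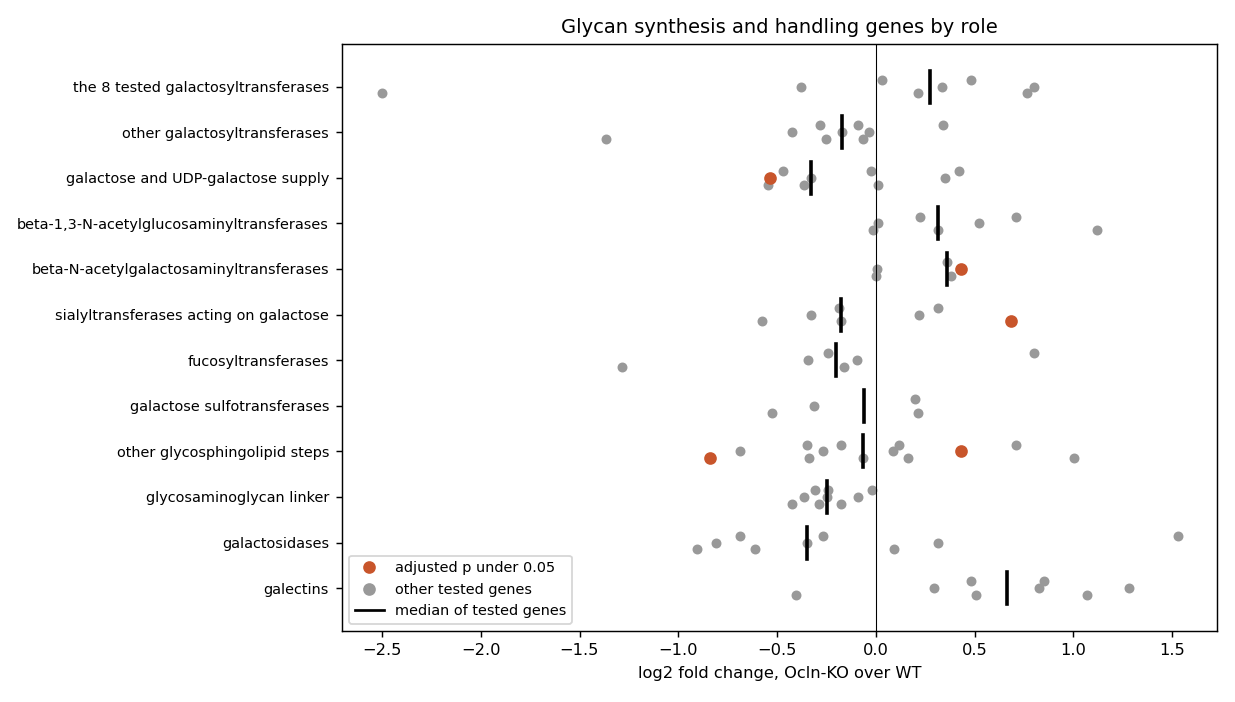
Log2 fold change, Ocln-KO over WT, of each tested gene by list, with genes at an adjusted p under 0.05 in orange and the median of each list as a black bar. B3galt2, at -2.50, is the lowest point of all lists, and the 4 called genes, of which B4galnt1 stands in 2 lists, lie between -0.84 and 0.68.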

How the data were processed

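Whole-epididymis RNA was depleted of rRNA, made into directional libraries and sequenced as paired ends. Per the methods, reads were cleaned of adaptors and poor bases, mapped to GRCm38 by HISAT2 (2.0.4 in the submitters' processing notes) and counted per gene by HTSeq, and the values the authors deposited are raw counts per gene and library, without normalization. The counting mode, the strand setting and the handling of multiply aligned reads are not given in the sources used here. A protocol in the records names another tissue, prefrontal cortex, than the records' epididymis. Columns were matched to samples by title, with 0 unmatched. In R 4.3.3, edgeR 4.0.16 kept 19691 genes (filterByExpr), scaled them with TMM factors and compared the genotypes with glmQLFit and glmQLFTest, adjusted over all genes tested. The standard error (SE) of a log2 fold change is its absolute size over the root of the F statistic. limma 3.58.1 (voom), DESeq2 1.42.0, other scalings and filters, a replicate block and each library left out were alternatives. On simulated counts for these genotypes, with 200 genes changed 4-fold, edgeR recovered 78.5% and called 15 unchanged genes among 19312 tested. The simulation gave both genotypes the same dispersion for each gene. In the data the SD of log2 CPM was larger in Ocln-KO for 60.4% of tested genes, so these figures need not hold for the data. Libraries held 30646424 to 38870780 counts, and count limits cover counting error only. Within genotypes no library pair agreed within sampling noise (chi-square per degree of freedom at least 15.3). Exon lengths and overlaps come from GENCODE M21 and sequences from RefSeq (GRCm38.p6). The genes named are the 10 galactosyltransferases, called genes of the role lists, overlapping genes, the 5 nearest to B3galt2, Ocln, markers that were called or check the tissue, and Ggta1, Slc35a2, B4galt2, B4galt3, B4galt7 and the 3 linker genes, which were picked with their values in view. Of the genes overlapping B3galt1, B4galt1 and B4galt4, none shares exonic bases with them. The members and lists were chosen with earlier results of these data known.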

Additional observations from a re-analysis of the deposited data

How the results depend on the processing

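Of the 8 tested galactosyltransferase genes 0 were called by the edgeR test, and 1 was called with DESeq2 (B4galt6), 1 with limma-voom and 1 without a count filter (both B3galt2), while leaving out 1 library gave between 0 and 1, the latter without Ocln-KO replicate 3. Of all tested genes, 8.95% were called by the edgeR test and 16.8% with DESeq2. The share was 9.03% with limma-voom, 6.73% without a count filter and 8.31% without Ocln-KO replicate 3. The 4 calls among the other glycan genes became 14 with DESeq2 and 8 without a count filter, and ran from 0 to 10 with libraries left out. The cause was not tested. The labels share replicate numbers, and the methods speak of 3 pairs of mice without saying what a pair shared. Deviations from the group means of same-numbered libraries correlated at -0.05, -0.03 and -0.00256 across genes. For WT and Ocln-KO libraries of different number these correlations ran from -0.083 to 0.13. With 3 libraries per genotype such values cannot decide whether the numbers mark pairs, and the main test was unpaired. With the replicate block 0 glycan genes were called, where 21 had an unadjusted p under 0.05, and 0 of the 8, where 2 had, and the calls among the cell type and region markers also became 0. Those marker calls became 0 with any 1 WT library left out as well. The log2 fold change of B4galt4 reversed to -0.022 without WT replicate 3 and -0.11 without Ocln-KO replicate 3 and reached 0.17 without Ocln-KO replicate 1, and that of Cdc73 reversed to -0.068 without WT replicate 3 and -0.038 without Ocln-KO replicate 1 and reached 0.096 without WT replicate 1. The ratio of B4galt1 to B4galt4 levels per kilobase was 1.16 with the longest transcript. With libraries left out, the difference of log2 ratios lay between -0.69 and -0.38 for B4galt5 to B4galt6 and between 2.93 and 4.89 for B3galt1 to B3galt2. With the replicate block the ratio differences were unchanged, at -0.54, 0.44 and 4.12. Over all genes, 770 higher and 992 lower calls became 1604 and 1708 with DESeq2 and 10 and 31 with the replicate block, and with a WT library left out 4 and 19, 85 and 145, and 16 and 40 (replicates 1, 2 and 3), and 220 and 342 without Ocln-KO replicate 2. The depth leaves B3galt4 and B3galt5 without a test. Further limits are the unstated counting rules, Ocln-KO replicate 3, which was the highest or lowest Ocln-KO library in 8 of the 8, and marker transcripts of cell types and regions that differed between the libraries.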
